A study of Mus musculus with 27 samples.

Results

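The 76 genes described here encode the nuclear subunits of the machinery of oxidative phosphorylation, which makes most of the ATP of a resting cell in the mitochondrial inner membrane. They were chosen by name among the 29872 rows of a table of raw read counts from cultured mouse macrophages. Rows named as Nduf, Sdh, Uqcr, Cox or Atp5 subunits were taken, rows marked as pseudogenes were left out, and a mean of at least 1 CPM (counts scaled to a common library total) over all 27 libraries was required. Of 94 rows that matched by name, 10 carried the pseudogene mark and 8 lay below the minimum. The members fell into complex I (36 genes), complex II (4), complex III (8), complex IV (12) and complex V (16). Just inside the minimum lay Cox7a1 at 3.77, Ndufb4 at 5.36 and Atp5l at 12.9 CPM, and just outside lay Cox6a2 at 0.997, Cox6b2 at 0.315 and Cox4i2 at 0.269 CPM. Assignment followed the gene's name, so Ndufa4, which is known as a component of complex IV, was counted under complex I. Subunits encoded by the mitochondrial genome were not analysed here.

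Complex I (NADH dehydrogenase) and complex II (succinate dehydrogenase) pass electrons to ubiquinone, complex III passes them to cytochrome c, and complex IV passes them to oxygen. Complexes I, III and IV pump protons as they do so, and complex V, the ATP synthase, lets the protons back through a rotating ring of c subunits to make ATP. In macrophages, activation by interleukin 4 (IL4) is known for an oxidative metabolism fed by fatty acids and glutamine, while glucocorticoids act through the glucocorticoid receptor on many genes of inflammation and metabolism.

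The RNA was poly(A)-selected from macrophages grown for 5 days from the marrow of male animals aged 8 to 10 weeks. The medium held bovine serum (20%) and medium conditioned by L cells (10%), the source of macrophage growth factor. Knockout mice (LysM-Cre+/+; GRIP1fl/fl) carried Cre recombinase in the Lyz2 (LysM) locus, which is active in myeloid cells, and a floxed Ncoa2 gene. Ncoa2 encodes GRIP1, a coregulator of the glucocorticoid receptor and of other transcription factors. Wild-type mice were given as LysM-Cre+/+; GRIP1wt/wt on C57BL/6 in one label and as BL6 in another, so whether the wild-type cells also carried Cre is not settled. Cells of each genotype received IL4 at 10 ng/ml, corticosterone at 500 nM, dexamethasone at 100 nM or vehicle for 24 h. The knockout groups held 3 libraries with IL4 and 4 with each other treatment, and every wild-type group held 3. Separate animals are not named for the libraries in the labels. The p-values therefore rest on a spread between libraries that may be technical.

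Libraries held 20162729 to 48023102 counts. Ncoa2 lay between 16.1 and 26.0 CPM in the 15 knockout libraries, against 55.7 to 93.4 CPM in the 12 wild-type libraries. The summed level of 8 macrophage markers was 5628 to 6700 CPM in knockout and 5309 to 6441 CPM in wild-type libraries. The summed level of 6 stromal cell markers was 10.3 to 41.9 CPM in knockout and 149.6 to 782 CPM in wild-type libraries, and that of 8 neutrophil markers was 6.18 to 17.0 CPM in knockout and 49.1 to 348 CPM in wild-type libraries. Libraries of one group differed in the members as a whole. The median deviation of the members from their group's mean (log2) was 0.22 in the knockout vehicle library numbered 2, 0.18 and −0.21 in the knockout IL4 libraries numbered 2 and 4, and between −0.12 and 0.12 in all others. Within the wild-type vehicle group the libraries numbered 1, 2 and 3 had 75, 2 and 13 of the 76 members above the group's mean. Arg1, an IL4 target gene, was above 50 CPM in 4 libraries without IL4, namely 117 and 78.4 CPM in the knockout vehicle libraries numbered 2 and 3, 68.0 CPM in the knockout dexamethasone library numbered 2 and 67.1 CPM in the wild-type dexamethasone library numbered 1.

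The members were short genes, with a median exon length of 1631 bases against 4072 bases over the 14589 genes that passed the filter on low counts. The fitted deviation of genes with 1 kb of exon minus that of genes with 5 kb ranged from −0.11 in the knockout IL4 library numbered 4 to 0.21 in the knockout vehicle library numbered 2 (log2). Results that move when this trend is taken out are given with both values.

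Levels were put on edgeR's TMM scale, which adjusts each library's total by a factor for its composition. Together the 76 members took about 1% of this adjusted total in every library, between 0.850% and 1.15%. Their summed level was 10357 ± 1266 CPM with IL4, 9620 ± 446 with corticosterone, 9715 ± 338 with dexamethasone and 9974 ± 1044 with vehicle in knockout cells (mean ± SD, n = 3, 4, 4 and 4). In wild-type cells it was 10554 ± 165 CPM with IL4, 8886 ± 224 with corticosterone, 8867 ± 494 with dexamethasone and 9093 ± 631 with vehicle (n = 3 each). On this scale all 3 wild-type IL4 libraries lay above every other wild-type library. The factors were 0.97 to 0.99 in these IL4 libraries and 1.03 to 1.04 in the wild-type vehicle libraries, so they widened the gap between these groups. Without them the wild-type vehicle library numbered 1 and the IL4 library numbered 2 would lie about level, so the full separation depends on this scale. In knockout cells the IL4 libraries, at 8995 to 11497 CPM, overlapped the vehicle libraries, at 9306 to 11532 CPM.

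**Figure D1:**
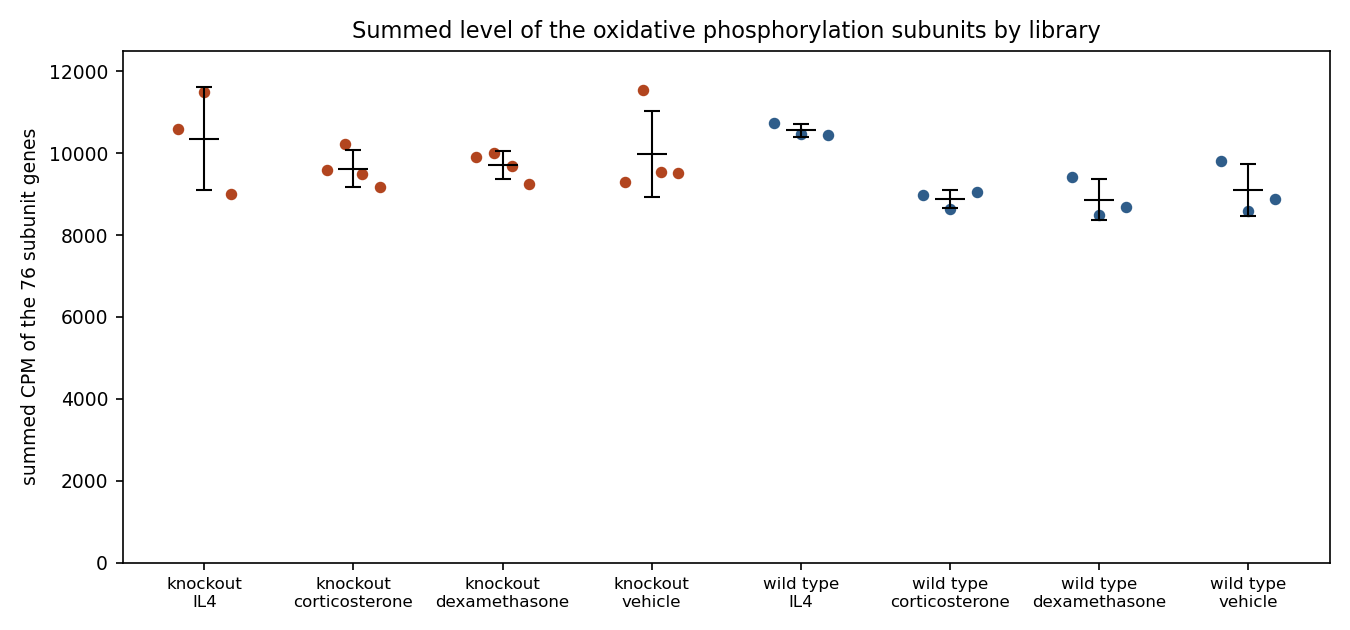
Summed CPM of the 76 subunit genes in each library (points), with the mean and SD of each group (bars), knockout groups in red and wild-type groups in blue. The 3 wild-type IL4 libraries sit between 10450 and 10744 CPM, and the knockout vehicle library numbered 2 stands at 11532 CPM, above the other 3 of its group.

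Within the set the levels differed widely. Per kb of the principal transcript, Cox4i1, the largest nuclear subunit of complex IV, was highest at 529 ± 45.8 CPM per kb (mean ± SD, n = 27). Atp5b, the catalytic beta subunit of the ATP synthase, followed at 498 ± 62.4, within the spread of Cox4i1, and its alpha subunit Atp5a1 at 333 ± 33.0. Cox6a1 was at 330 ± 30.1 and Atp5g3, the most abundant of 3 genes that encode the same c subunit, at 314 ± 42.3 CPM per kb, so the last 3 did not differ beyond their spread. Cox8a was at 308 ± 34.1 and Cox6b1 at 302 ± 23.6. The median member was at 82.2 CPM per kb in complex I, 129 in complex II, 137 in complex III, 158 in complex IV and 143 in complex V. The lowest members were Ndufb4 at 5.53 ± 2.03, Ndufb2 at 7.04 ± 1.11 and Cox7a1, the form of that subunit known from heart and skeletal muscle, at 9.6 ± 0.908 CPM per kb. These values depend on how reads from near-identical copies were counted: 37.0% of the 50-base windows of the Ndufb4 transcript also occur in other annotated transcripts, as do 87.4% of those of Atp5g2 and 47.9% of those of Atp5h. The measured level of such members is less certain.

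**Figure D2:**
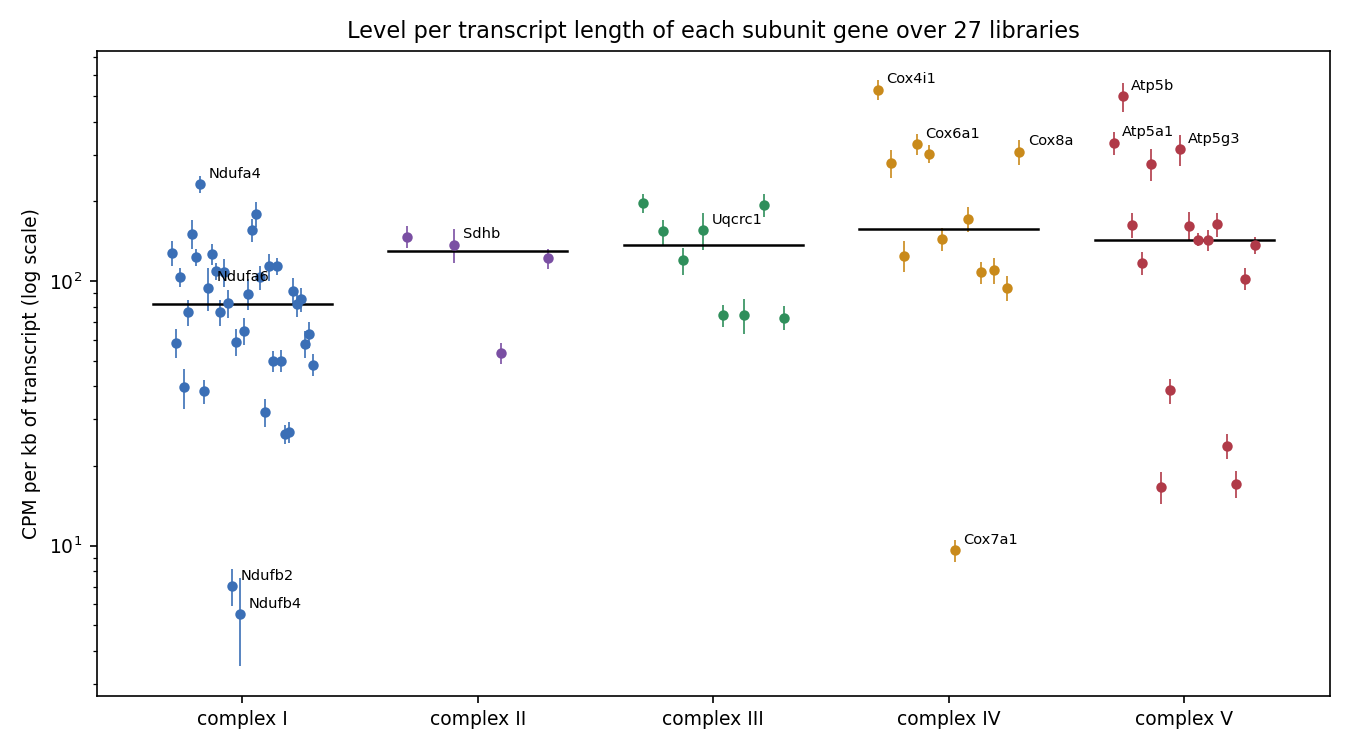
Mean level of each subunit gene over 27 libraries in CPM per kb of its principal transcript on a log axis, with the SD (bars) and the median of each complex (black lines). Complex IV and complex V hold the 5 highest genes, led by Cox4i1 at 529, and Ndufb4, Ndufb2 and Cox7a1 lie lowest.

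The members' levels moved together between libraries of one group. Over the 2850 pairs of members, the correlation of their deviations from the group means over 27 libraries had a median of 0.658, and 94.1% of pairs were above 0. Ndufa8, an accessory subunit of complex I, followed the median of the other members most closely (r = 0.961), and Atp5pb, the b subunit of the ATP synthase stalk, came next (r = 0.958). Ndufb4 (r = −0.339) and Ndufv3 (r = −0.108) ran against the rest. These correlations describe points that share library, depth and transcript length, and both low values include the knockout IL4 library numbered 4, where Ndufb4 was at 14.6 CPM, against 5.40 and 5.02 CPM in the others of its group, and Ndufv3 at 107 CPM, against 74.8 and 78.5.

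In wild-type cells IL4 raised 15 of the 76 subunits and lowered none (edgeR's quasi-likelihood test, adjusted p under 0.05 by Benjamini-Hochberg over 14589 genes). These 15 are 19.7% of the members, while 14.8% of all genes tested rose and 15.3% fell. The rises were small: the median log2 fold change of the members was 0.17, against −0.01 over all genes, and 73 of the 76 values were positive. In 35 members all 3 IL4 libraries lay above all 3 vehicle libraries, which held for 22.2% of all genes. The wild-type libraries were taken as paired by replicate number from correlations in these same data, not from the labels. A fit blocked on those numbers called 31 subunits higher, where 19.6% of all genes were. With the length trend taken out as well it also called 31 (20.9% of all genes), and a fit of the 2 groups alone called 24 (15.9%).

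The members that rose came from all 5 complexes. Complex III held the largest change. Uqcrc1, the first core protein of complex III (ENSMUSG00000025651, GRCm38 chromosome 9, 108936633 to 108949623), was at 327, 336 and 338 CPM with IL4, against 248, 226 and 242 CPM with vehicle. It rose by 0.48 ± 0.09 on the log2 scale (SE, adjusted p = 0.000127), and the groups did not overlap. Its partner Uqcrc2 was at 160, 158 and 157 CPM with IL4, against 130, 122.5 and 126.5 CPM with vehicle (0.33 ± 0.06, adjusted p = 0.000101). Part of its exons overlaps Pdzd9 on the opposite strand, and Pdzd9 did not pass the filter on low counts. The small subunit Uqcr10 rose by 0.26 ± 0.07 (adjusted p = 0.00775). Uqcrfs1, the Rieske iron-sulphur protein, had a value of 0.29 ± 0.16 that did not pass (adjusted p = 0.173).

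In complex II, which also works as succinate dehydrogenase of the TCA cycle, 3 of 4 subunits rose. The flavoprotein Sdha was at 442, 467 and 458 CPM with IL4, against 378, 377 and 366 CPM with vehicle (0.29 ± 0.06, adjusted p = 0.000571). The iron-sulphur subunit Sdhb was at 189, 179 and 182 CPM with IL4, against 157, 137.5 and 146 CPM with vehicle (0.32 ± 0.09, adjusted p = 0.00647). In both genes every IL4 library was above every vehicle library. Of the membrane anchors, Sdhd rose by 0.25 ± 0.09 (adjusted p = 0.0354) and Sdhc had a value of 0.19 ± 0.08 (adjusted p = 0.0701).

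In the ATP synthase 3 of 16 subunits rose, all of them among the 5 of the F1 part, and whether F1 differed from the rest was not tested. Atp5b, which holds the catalytic sites, was at 1180, 1146 and 1123 CPM with IL4, against 973, 875 and 879.5 CPM with vehicle (0.34 ± 0.10, adjusted p = 0.0105). The alpha subunit Atp5a1 was at 929.5, 944 and 922 CPM with IL4, against 800.0, 740.0 and 753 CPM with vehicle (0.29 ± 0.09, adjusted p = 0.0167), and its adjusted p was up to 0.0649 when 1 vehicle library was left out. The gamma subunit Atp5c1, the central stalk that turns inside the head, rose by 0.29 ± 0.07 (adjusted p = 0.00127). The 3 genes of the c subunit, Atp5g1, Atp5g2 and Atp5g3, had values of 0.24 ± 0.11, 0.21 ± 0.13 and 0.28 ± 0.15, none past the threshold, although in each of them all IL4 libraries lay above all vehicle libraries. These values are close to those of Atp5a1 and Atp5c1. The 3 subunits of the peripheral stalk had a median of 0.04.

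In complex I, 4 of 36 subunits rose. Ndufs1, the core subunit that carries most of the iron-sulphur clusters at the NADH end, was at 147, 142 and 146 CPM with IL4, against 129, 125 and 116 CPM with vehicle (0.23 ± 0.06, adjusted p = 0.00641). It was the only one of 7 core subunits that rose, and without the vehicle library numbered 3 its adjusted p was 0.0542. The accessory subunit Ndufb10 was at 88.4, 85.6 and 88.3 CPM with IL4, against 73.15, 66.1 and 68.4 CPM with vehicle (0.34 ± 0.07, adjusted p = 0.000994). The accessory subunits Ndufb5 (0.29 ± 0.10, adjusted p = 0.0284) and Ndufa10 (0.27 ± 0.07, adjusted p = 0.00622) rose as well. Exons of Ndufb5 overlap Mrpl47 on the opposite strand.

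In complex IV, 2 of 12 nuclear subunits rose. Cox8a, the smallest subunit, was at 202, 201 and 202 CPM with IL4, against 170, 154 and 160 CPM with vehicle (0.32 ± 0.09, adjusted p = 0.00973). Cox7b rose by 0.28 ± 0.09 (adjusted p = 0.0163). The main subunits Cox4i1 (0.13 ± 0.10) and Cox5a (0.14 ± 0.15) did not pass. Cox7a2l, which is known to join complexes III and IV into supercomplexes, had a value of −0.01 ± 0.09.

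Of the 15 calls, 9 were made under all 15 alternatives tried, namely Uqcrc1, Uqcrc2, Sdha, Sdhb, Atp5b, Atp5c1, Ndufb10, Ndufa10 and Cox8a. The count was 10 without the vehicle library numbered 2 or the one numbered 3 (12.7% and 11.8% of all genes were higher) and 21 without the one numbered 1 (14.5%). Markers of other cell types moved with IL4 too. The summed level of 5 endothelial markers was 40.7 to 47.7 CPM with IL4 and 20.8 to 23.6 CPM with vehicle in wild-type cells, and that of 5 osteoclast markers was 148 to 205 and 81.3 to 126 CPM. In knockout cells the endothelial sums were 41.3 to 58.2 CPM with IL4 and 27.5 to 33.9 CPM with vehicle, and the osteoclast sums were 126 to 137 and 93.6 to 114 CPM. Their part in the IL4 results was not tested. Fewer cells of a type and less RNA per cell cannot be told apart in these bulk samples.

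**Figure D3:**
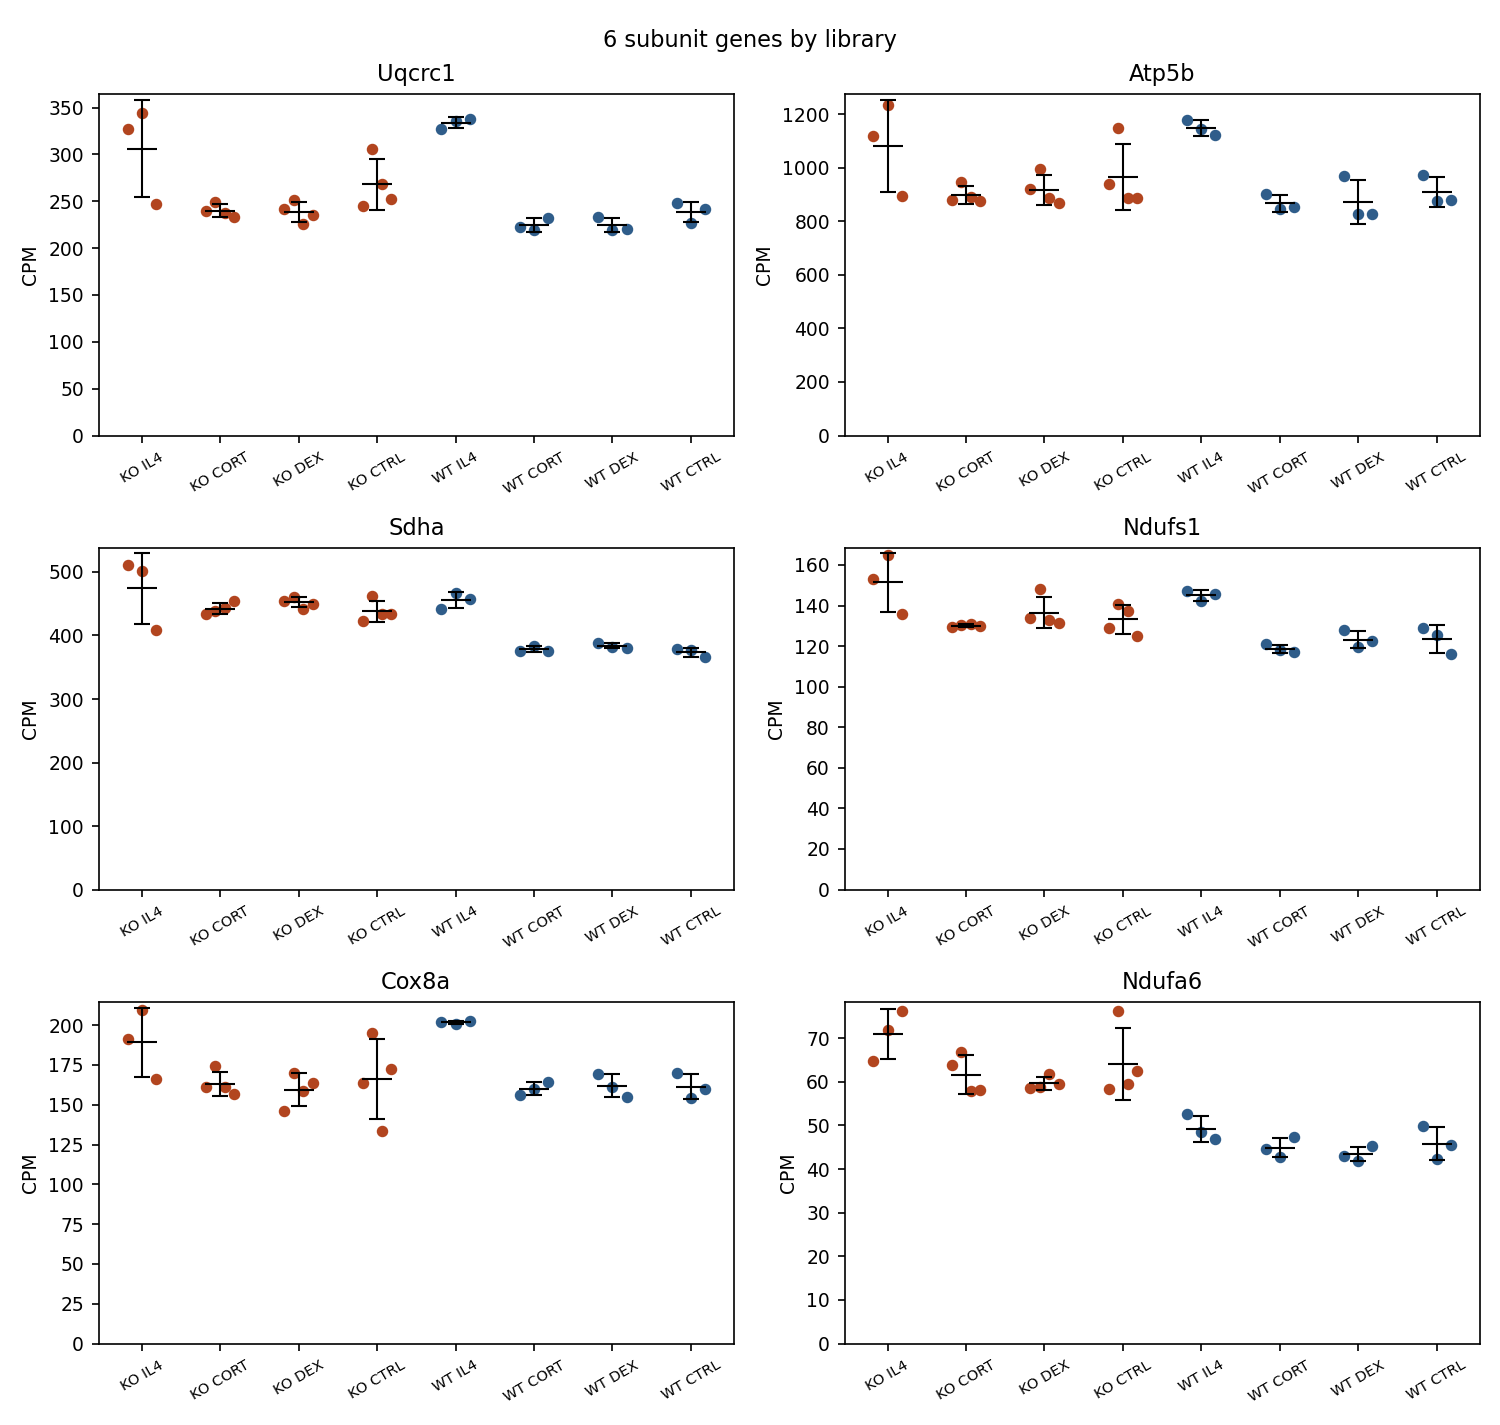
CPM of 6 subunit genes in each library (points), with the mean and SD of each group (bars), knockout (KO) groups in red and wild-type (WT) groups in blue, under IL4, corticosterone (CORT), dexamethasone (DEX) and vehicle (CTRL). Uqcrc1 stands at 327 to 338 CPM in the 3 wild-type IL4 libraries, above all other wild-type libraries, and Ndufa6 is above all wild-type libraries in every knockout library.

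The promoters of the members were searched for motifs of factors tied to mitochondrial genes or to these treatments, in windows from 250 bases before to 50 after the start (RefSeq, GRCm38.p6, both strands), which were found for 64 of the 76 members. NRF1 and GABPA are activators of nuclear genes for the respiratory chain, YY1 is a regulator of many housekeeping genes, and estrogen-related receptors (ERR) work with the PGC-1 coactivators. STAT6 is activated by IL4, and GR is the glucocorticoid receptor. The NRF1 motif, the capitals of the Uqcrc1 window below, lay in 7.81% of the members' windows and in 1.07% of 27025 genes, and the YY1 letters AAGATGGCG in 10.9% and 1.64%. The GABPA letters CCGGAAGT lay in 7.81% and 4.31%, and the ERR letters TCAAGGTCA in 3.12% and 0.466%. The STAT6 motif, TTC and GAA with any 4 bases between, lay in 6.25% and 8.01%. The GR motif, GNACA and TGTNC with any 3 bases between, lay in 0 of the 64 windows and in 0.537% of genes. Among the members raised by IL4 in wild-type cells, 3 of the 12 with a window held any of these motifs, against 18 of 52 other members. The windows of those 3 are printed 5′ to 3′ because they belong to the largest change of the set, a complex IV subunit and a complex II anchor. Capitals mark the NRF1 match in Uqcrc1 (chr9:108936398-108936697, plus strand), both GABPA matches in Cox8a (chr19:7217567-7217866, minus strand) and the ERR match in Sdhd (chr9:50603800-50604099, minus strand), and in Cox8a and Sdhd the letters read as the reverse complement of the motif.
Uqcrc1: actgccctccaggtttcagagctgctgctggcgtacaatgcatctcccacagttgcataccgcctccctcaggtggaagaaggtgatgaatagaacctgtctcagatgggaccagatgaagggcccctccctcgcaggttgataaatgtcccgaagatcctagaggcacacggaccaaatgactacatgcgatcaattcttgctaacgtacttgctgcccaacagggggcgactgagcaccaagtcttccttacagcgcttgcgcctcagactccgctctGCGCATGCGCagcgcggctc
Cox8a: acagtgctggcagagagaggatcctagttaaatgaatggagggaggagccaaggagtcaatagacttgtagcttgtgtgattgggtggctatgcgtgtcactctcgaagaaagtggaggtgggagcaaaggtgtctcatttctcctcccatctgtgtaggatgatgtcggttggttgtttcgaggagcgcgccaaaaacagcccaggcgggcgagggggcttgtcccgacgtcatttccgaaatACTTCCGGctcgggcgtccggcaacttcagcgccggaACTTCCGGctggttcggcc
Sdhd: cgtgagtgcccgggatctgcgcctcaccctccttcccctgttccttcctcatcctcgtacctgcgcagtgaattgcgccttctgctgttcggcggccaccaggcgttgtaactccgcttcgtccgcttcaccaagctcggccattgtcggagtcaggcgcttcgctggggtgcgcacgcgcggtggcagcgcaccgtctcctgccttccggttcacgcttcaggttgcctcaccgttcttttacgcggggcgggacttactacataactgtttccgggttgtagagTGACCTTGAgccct
The Uqcrc1 match begins at base 281 of the window, the Cox8a matches at bases 245 and 282, and the Sdhd match at base 287, so all 4 lie close to the start of transcription. A match describes letters only and shows no binding.

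Genes around the respiratory chain were set beside the members. Of 18 genes of pyruvate dehydrogenase and the TCA cycle, which supply NADH and succinate, 12 rose with IL4 in wild-type cells and none fell, with a median of 0.22. Among them, Suclg1, a subunit of succinyl-CoA ligase, rose by 0.38 ± 0.09 (adjusted p = 0.00158) and the citrate synthase Cs by 0.23 ± 0.05 (adjusted p = 0.00102). Of 9 carriers and channels of the mitochondrial membranes, 5 rose, among them Ucp2 (0.58 ± 0.07) and the ADP/ATP carrier Slc25a5 (0.36 ± 0.10). Among assembly factors of complex I, Tmem126b rose (0.57 ± 0.09) and Ndufaf7 fell (−0.30 ± 0.09) of 15, and for the other complexes 4 of 33 rose. Of 14 regulators of mitochondrial biogenesis, 2 rose. The coactivator Ppargc1b (PGC-1 beta) was at 17.3, 17.6 and 17.7 CPM with IL4, against 5.40, 4.78 and 5.19 CPM with vehicle (1.77 ± 0.16, adjusted p = 1.93e-08), and Pparg rose by 1.77 ± 0.20. Of 14 cell cycle genes, 11 fell and none rose, with a median of −0.51. Called changes in these lists were not confined to IL4. In wild-type cells dexamethasone raised Ucp2 (0.55 ± 0.07, adjusted p = 2.35e-06) and Tmem126b (0.33 ± 0.09, adjusted p = 0.0168). The regulator Ppard rose (0.28 ± 0.06, adjusted p = 0.0024) and the cell cycle gene Aurka fell (−0.37 ± 0.11, adjusted p = 0.0296). With corticosterone Ucp2 (0.33 ± 0.07, adjusted p = 0.00275) and Ppard (0.24 ± 0.06, adjusted p = 0.0156) rose.

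In knockout cells IL4 raised 8 of the 76 subunits and lowered none (10.5%, where 14.5% of all genes rose and 12% fell), and the median of the members was 0.02. The 8 were Ndufa12 (0.42 ± 0.12, adjusted p = 0.0133), Cox5b (0.29 ± 0.10), Ndufv2 (0.29 ± 0.08), Ndufa10 (0.26 ± 0.07), Cox7b (0.23 ± 0.08), Atp5c1 (0.23 ± 0.06), Uqcrc2 (0.19 ± 0.05) and Ndufs1 (0.19 ± 0.06). Of all 76 members, Uqcrc2 was the only one whose 3 IL4 libraries lay above all 4 vehicle libraries, while 14.8% of all genes did so. It was at 159, 168 and 162 CPM with IL4, against 136, 153, 145 and 137 CPM with vehicle. Ndufa12, an accessory subunit of complex I, was at 49.0, 54.2 and 67.8 CPM with IL4, against 40.0, 50.5, 43.8 and 36.5 CPM with vehicle. Of its transcript, 26.2% of the 50-base windows also occur in other transcripts, as do 25.9% of those of Cox5b.

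The knockout IL4 values rested on single libraries. Uqcrc1 was at 327, 345 and 247 CPM with IL4, against 245, 306, 268 and 253 CPM with vehicle (0.19 ± 0.08, adjusted p = 0.0837). Atp5b was at 1118, 1234 and 896 CPM with IL4, against 938.5, 1147, 886 and 888 CPM with vehicle (0.17 ± 0.09, adjusted p = 0.193). In both genes the IL4 library numbered 4 lay within the range of the vehicle libraries, and the IL4 libraries numbered 1 and 2 had higher values than number 4. For Uqcrc1 they also lay above all vehicle libraries, while for Atp5b number 1 lay below the highest vehicle library. In that library 39 of the 76 members were below 0.8 of the mean of the others in its group, with Ndufb2 (16.8 CPM, against 36.6), Ndufv1 (59.8 against 111) and Uqcrfs1 (64.5 against 115) among the lowest, while Ndufa12 and Ndufv2 were among its highest. Without it, 9 subunits rose, 3 of them from the list of 8. With all libraries kept 14.5% of all genes rose, and the share in the fit without it is not given here. Among the 9 were then Uqcrc1 (0.32 ± 0.07, adjusted p = 0.00116), Sdha (0.21 ± 0.04, adjusted p = 0.000828) and Atp5b (0.29 ± 0.09, adjusted p = 0.0235). All 9 were among the 15 raised in wild-type cells, against 5 of the 8 with that library kept. Without the vehicle library numbered 2, 17 subunits rose (14.8% of all genes), and without the one numbered 4, 4 rose (11.9%). With the length trend taken out 17 rose and 2 fell (15.3% and 12.4% of all genes), with the replicate number as a block as well 22 rose and 2 fell (19.5% and 16.9%), in a fit of the 2 groups alone none passed, and no single call of the 8 was made under all 16 alternatives. The median of the members was 0.10 without the IL4 library numbered 4, 0.11 without the vehicle library numbered 2 and −0.11 without the IL4 library numbered 2.

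**Figure D4:**
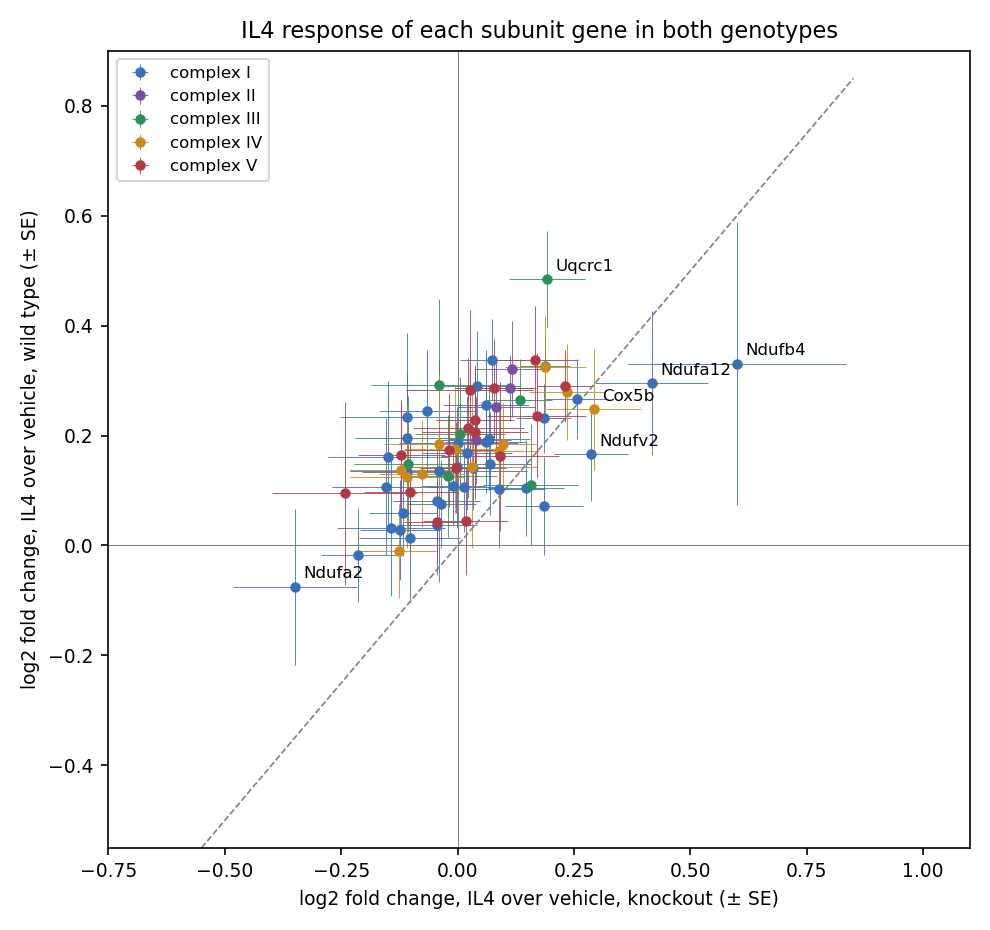
Fitted log2 fold change of each subunit gene with IL4 over vehicle in knockout cells (horizontal) and in wild-type cells (vertical), with standard errors and the line of equal change (dashed), coloured by complex. Most points lie above the dashed line, and Ndufa12, Ndufv2, Cox5b and Ndufb4 lie below it.

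Whether the IL4 response differed between genotypes was tested directly, with the wild-type response subtracted from the knockout one. None of the 76 members passed with edgeR or with DESeq2, 5 had an unadjusted p under 0.05, and 0.0274% of all genes passed. The median difference was −0.15, with 69 of 76 values negative. Of the 5, the lowest p-values were those of Ndufb10 (−0.26, 95% interval −0.46 to −0.06, adjusted p = 0.419) and Uqcrc1 (−0.29, −0.53 to −0.06, adjusted p = 0.456). The largest difference of the 5 was that of Ndufa13 (−0.31, −0.60 to −0.02, adjusted p = 0.550). The median was −0.07 without the knockout IL4 library numbered 4, −0.09 without the knockout vehicle library numbered 2 and −0.09 with the length trend taken out.

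The genes beside the chain were counted in knockout cells as well. Of 18 genes of pyruvate dehydrogenase and the TCA cycle 8 rose with IL4, among them Ogdh (0.35 ± 0.06, adjusted p = 0.000192) and Cs (0.25 ± 0.05, adjusted p = 0.000377), and 11 of 14 cell cycle genes fell. Ppargc1b was at 16.3, 14.4 and 18.3 CPM with IL4, against 5.81, 7.87, 8.00 and 7.01 CPM with vehicle (1.19 ± 0.15, adjusted p = 2.41e-06). The regulators Pprc1 (0.33 ± 0.08, adjusted p = 0.00369) and Myc (0.71 ± 0.22, adjusted p = 0.018) rose as well. So did Pparg (1.27 ± 0.18) and Ppard (0.17 ± 0.06, adjusted p = 0.0337), while Nrf1 fell (−0.18 ± 0.06, adjusted p = 0.0357). Of the carriers, Ucp2 rose (0.38 ± 0.06, adjusted p = 8.84e-05), while Slc25a5 did not pass (0.16 ± 0.09, adjusted p = 0.18).

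Glucocorticoids changed none of the 76 subunits in either genotype by edgeR's test, although they changed 24.1% of all genes in at least 1 of the 4 comparisons. In knockout cells, corticosterone changed 12.1% and dexamethasone 18.4% of all genes, and the medians of the members were −0.04 and −0.05. In wild-type cells, corticosterone changed 5.94% and dexamethasone 13.7% of all genes, and the medians of the members were −0.02 and −0.04. At an unadjusted p under 0.05 there were 2 and 3 members with corticosterone and dexamethasone in knockout cells, and 1 and 3 in wild-type cells. DESeq2 called none in 3 of the comparisons and 2 lower in wild-type cells with dexamethasone, Sdhb (−0.25 ± 0.09, adjusted p = 0.0487) and the core subunit Ndufs8 (−0.22 ± 0.08, adjusted p = 0.0475). Sdhb was at 131.5, 119 and 122 CPM with dexamethasone, 133, 121 and 133 CPM with corticosterone and 157, 137.5 and 146 CPM with vehicle in wild-type cells, so every glucocorticoid library was below every vehicle library. Its fitted value was −0.24 ± 0.09 with dexamethasone (adjusted p = 0.0711) and −0.18 ± 0.09 with corticosterone (adjusted p = 0.296).

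With the replicate number as a block, which was taken to pair these libraries, 3 members fell with dexamethasone in wild-type cells, Sdhb (−0.24 ± 0.06, adjusted p = 0.00657), Ndufc2 (−0.27 ± 0.08, adjusted p = 0.0145) and Ndufs8 (−0.21 ± 0.06, adjusted p = 0.0147). With the length trend taken out, Sdhb and Ndufc2 fell and Sdhd rose (0.20 ± 0.06, adjusted p = 0.0237). In knockout cells with corticosterone Ndufa10 (−0.16 ± 0.05, adjusted p = 0.0409) and Atp5g1 (−0.13 ± 0.04, adjusted p = 0.0403) fell in the fit with the replicate block. In the fit of all 8 groups 6.03% of all genes fell with dexamethasone in wild-type cells. The share of all genes called by DESeq2 and in these blocked and length-trend fits is not given here. Those calls are therefore not read as particular to the members. Where no change was called, the intervals bound the change but do not show that there was none. Dexamethasone in wild-type cells gave Sdha a value of 0.04 (95% interval −0.08 to 0.15), Atp5b a value of −0.06 (−0.25 to 0.13) and Uqcrc1 a value of −0.09 (−0.26 to 0.08). For Atp5b and Uqcrc1 the interval includes a fall as large as the median rise of the members with IL4 in wild-type cells. The doses of both steroids differed, so they were not tested against each other.

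Set directly against dexamethasone, IL4 gave higher levels of 23 of the 76 subunits in wild-type cells (15% of all genes were higher and 16.7% lower) and lower levels of none, and in 58 members all IL4 libraries lay above all dexamethasone libraries, which held for 22.5% of all genes. Uqcrc1 was higher by 0.57 ± 0.09 (adjusted p = 1.42e-05) and Sdhb by 0.56 ± 0.09 (adjusted p = 1.99e-05). Leaving out a dexamethasone library changed the count to 13 (number 2) or 14 (number 3), where 12.7% and 12.4% of all genes were higher. It was 40 without the libraries high in Arg1 (17.1% of all genes), 42 in the blocked fit (19.7%) and 47 in a fit of the 2 groups alone (17.1%). In knockout cells 17 subunits were higher with IL4 than with dexamethasone (20.2% of all genes were higher and 17.8% lower) and the accessory complex I subunit Ndufb11 was lower (−0.23 ± 0.08, adjusted p = 0.0257). Both comparisons use the same IL4 libraries as those against vehicle.

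Some subunits were higher in knockout than in wild-type cells. With vehicle their share was near that of all genes, and with IL4 it was below it. With vehicle, 7 members were higher and none lower (8.47% of all genes were higher and 10.3% lower), with corticosterone 7 (5.46% higher and 8.95% lower), with dexamethasone 9 (6.7% and 10.5%) and with IL4 1 (5.76% and 6.59%). These are 9.21%, 9.21%, 11.8% and 1.32% of the members. All knockout libraries lay above all wild-type libraries in 10 members with vehicle (12.6% of all genes), 28 with corticosterone (14.7%), 22 with dexamethasone (13.2%) and 6 with IL4 (15.3%). The medians of the members were 0.14 with vehicle, 0.11 with corticosterone, 0.13 with dexamethasone and −0.02 with IL4, and 0.08, 0.06, 0.08 and 0.00 with the length trend taken out. The sums of stromal and neutrophil markers given above did not overlap between genotypes and were lower in knockout, and their part in these differences was not tested.

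Ndufa6, an accessory subunit of complex I that sits on its matrix arm (ENSMUSG00000022450, GRCm38 chromosome 15, 82350140 to 82354322, minus strand), was the one member that was higher in knockout cells under all 4 conditions. Its level with vehicle was 58.3, 76.2, 59.5 and 62.4 CPM in knockout and 49.8, 42.2 and 45.4 CPM in wild-type cells (0.48 ± 0.08, adjusted p = 0.000188). With IL4 it was 64.9, 71.8 and 76.2 CPM in knockout and 52.5, 48.4 and 46.8 CPM in wild-type cells (0.53 ± 0.09, adjusted p = 0.000395). With corticosterone it was 63.8, 66.85, 57.9 and 58.1 CPM in knockout and 44.6, 42.9 and 47.3 CPM in wild-type cells (0.46 ± 0.08, adjusted p = 0.00046). With dexamethasone it was 58.6, 58.8, 61.8 and 59.5 CPM in knockout and 43.05, 41.9 and 45.2 CPM in wild-type cells (0.46 ± 0.08, adjusted p = 0.000381). Every knockout library was above every wild-type library, and the call was made under every alternative tried in each condition. The gene overlaps no other annotated exon and shares no 50-base window with another transcript. Over all genes, 241 of 14589 (1.65%) were higher in knockout under all 4 conditions, against 1 of 76 members (1.32%).

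Among the other subunits, Sdha was higher in knockout under 3 conditions. It was at 423, 462, 435 and 434 CPM in knockout and 378, 377 and 366 CPM in wild-type cells with vehicle (0.23 ± 0.06, adjusted p = 0.00435), and the values were 0.23 ± 0.06 with corticosterone (adjusted p = 0.00685) and 0.24 ± 0.06 with dexamethasone (adjusted p = 0.00396). With IL4 it was at 511, 502 and 409 CPM in knockout and 442, 467 and 458 CPM in wild-type cells (0.06 ± 0.06, adjusted p = 0.565). Sdhb was higher with corticosterone (0.26 ± 0.08, adjusted p = 0.0325) and with dexamethasone, where it was at 166, 159, 153 and 145 CPM in knockout and 131.5, 119 and 122 CPM in wild-type cells (0.33 ± 0.08, adjusted p = 0.00714).

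In complex I, Ndufb10, Ndufb11 and the core subunit Ndufs8 were each higher in knockout with vehicle, corticosterone and dexamethasone. Ndufs8, which carries iron-sulphur clusters near the quinone site, was at 85.9, 86.1, 91.1 and 88.45 CPM in knockout and 74.25, 66.9 and 71.3 CPM in wild-type cells with dexamethasone (0.31 ± 0.07, adjusted p = 0.00386). Ndufb11 was at 86.0, 85.2, 86.45 and 79.3 CPM in knockout and 67.8, 63.0 and 66.6 CPM in wild-type cells with dexamethasone (0.36 ± 0.08, adjusted p = 0.00304). Its exons overlap Rbm10 on the opposite strand, whose own value was 0.15 (adjusted p = 0.157). Atp5h, the d subunit of the ATP synthase stalk, was higher with corticosterone (0.29 ± 0.09, adjusted p = 0.0378) and dexamethasone (0.33 ± 0.09, adjusted p = 0.0151). Ndufa1 and Uqcrc2 with vehicle, and Ndufb5 and Ndufb7 with dexamethasone, completed the list of 11 members that were higher in at least 1 condition.

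The genotype differences with vehicle depended on single libraries. Leaving out a library can change the calls of all genes too. Counts in this paragraph without a share of all genes are therefore not read as particular to the members. The count of 7 was 3 without the knockout vehicle library numbered 2, where Ndufa6, Ndufb10 and Sdha stayed past the threshold, and 1 without the libraries high in Arg1. It was 4 with the length trend taken out, 2 in a fit of the 2 groups alone, 12 without the wild-type vehicle library numbered 1 (5.69% of all genes were higher), 11 without the knockout one numbered 1 (8.72%), 4 without the knockout one numbered 3 and 3 without the wild-type one numbered 2 or 3. With corticosterone the 7 became 2 without the wild-type library numbered 1 or 2 and 3 without the knockout library numbered 2. With dexamethasone the 9 became 5 without the wild-type library numbered 2, and Ndufa6, Ndufb11, Ndufs8, Sdha and Sdhb were called under all 16 alternatives. With IL4 the 1 became 2 without the knockout library numbered 4, with Sdha added (0.15 ± 0.04, adjusted p = 0.0314), and 2 without the one numbered 2, with Ndufb4 added. With the length trend taken out it was also 2, with Atp5h added (0.23 ± 0.07, adjusted p = 0.0326). Without the one numbered 1, Ndufa6 and Ndufv3 were higher and Uqcrfs1 was lower (−0.53 ± 0.17, adjusted p = 0.0398). The interactions of genotype with corticosterone and with dexamethasone called none of the members with edgeR (0.0206% and 0.185% of all genes) or DESeq2, and none had an unadjusted p under 0.05.

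**Figure D5:**
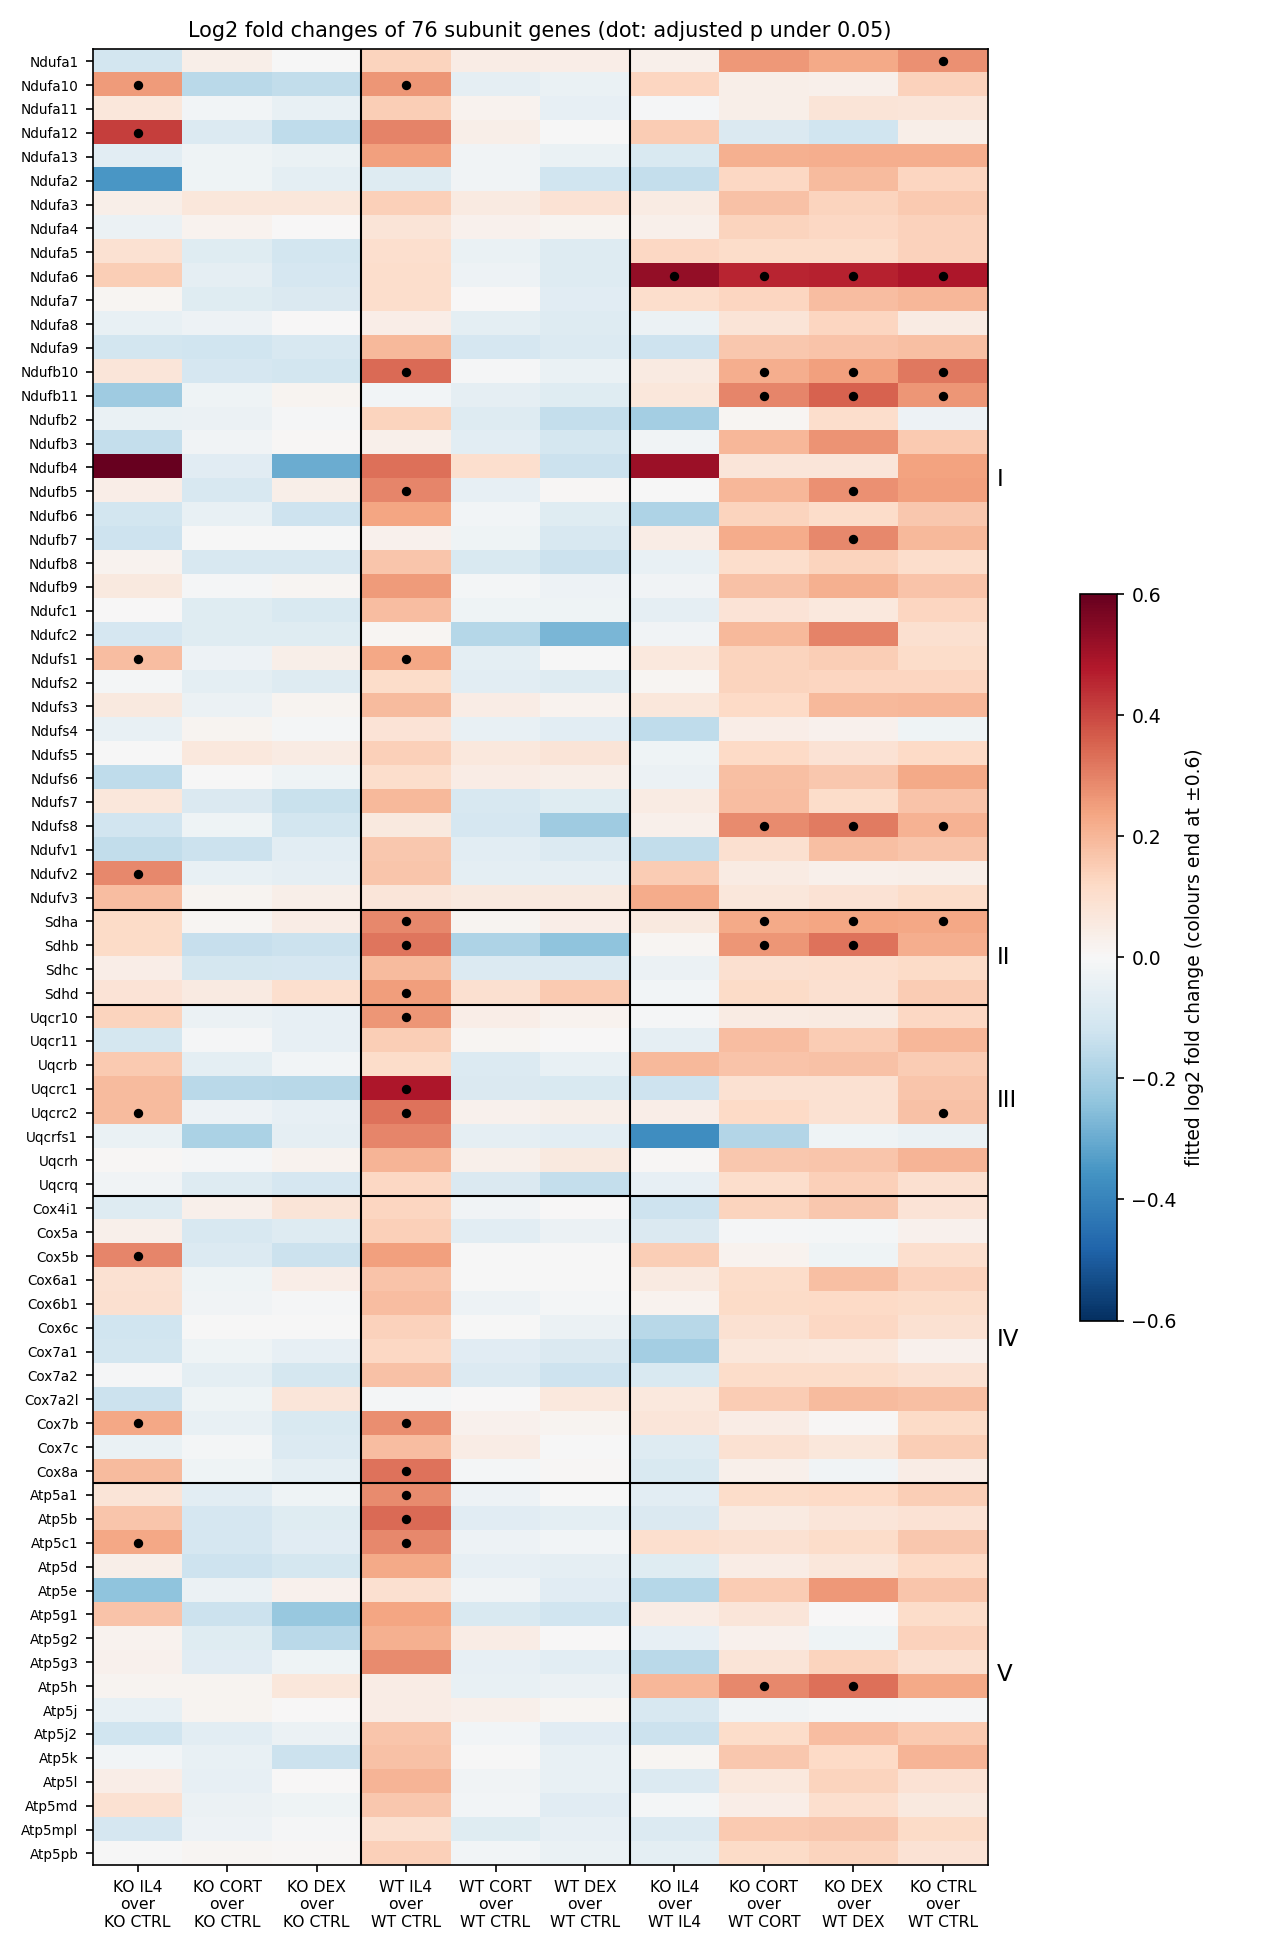
Fitted log2 fold changes of the 76 subunit genes (rows, grouped by complex I to V) in 10 comparisons (columns), with red for higher and blue for lower and a dot where the adjusted p was under 0.05. The dots lie in the IL4 columns and in the knockout over wild-type columns, with Ndufa6 marked in all 4 knockout over wild-type columns, and none lies in the 4 glucocorticoid columns.

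Over the 10 comparisons of treatment with vehicle and of knockout with wild type, 52 of the 76 members (68.4%) were called in none, against 41.4% of all genes tested. In the fit of all 8 groups every call among the members in these comparisons was a rise with IL4 or a higher level in knockout cells. The 18 members raised by IL4 in at least 1 genotype and the 11 higher in knockout in at least 1 condition include subunits of all 5 complexes in the first set and of 4 complexes, all but complex IV, in the second.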

How the data were processed

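Bulk RNA-seq of 27 mouse macrophage libraries was analysed from the deposited table of raw read counts per gene. Per the submitters' processing notes, fastp 0.23.2, STAR 2.7.0, featureCounts and edgeR 3.38.4 were used with build mm10. The version of featureCounts and the strand setting of the counting are not given in the sources used here, so reads of overlapping genes on opposite strands may not be separated. Reads were 50-base pairs from stranded poly(A) libraries, per the labels' protocols.

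From the deposited counts, edgeR 4.0.16 in R 4.3.3 (limma 3.58.1) was run with TMM scaling, a filter on low counts (minimum count 10) that left 14589 of 29872 genes, 1 model of the 8 group means and the quasi-likelihood F test, with Benjamini-Hochberg adjustment over all genes tested and a threshold of 0.05. All 76 members passed the filter. The common biological coefficient of variation was 0.122. Values named CPM are counts divided by the library's total after the filter times its TMM factor (0.941 to 1.044), scaled to a common total. The means set against the minimum of 1 CPM were scaled by the library's total alone. Log2 fold changes are those of the fit. DESeq2 1.42.0 was an alternative. The script was tested on simulated data. Gene positions and exon lengths came from GENCODE vM21, which held 29815 of the IDs.

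Samples with the same number within a genotype were taken as paired where every pair's deviations from the group means correlated above 0.1. These correlations were 0.260 to 0.754 for the wild-type comparisons of treatments used here, 0.105 to 0.326 for those of the knockout except dexamethasone with vehicle (−0.041 to 0.399), and −0.259 to 0.0613 between genotypes. Treatments were compared with vehicle within each genotype, IL4 with dexamethasone, knockout with wild type, and the treatment effects between genotypes, in 15 comparisons. Named genes were those with the largest called changes, fixed key subunits of each complex, the highest and lowest per length, and the leading genes of each related list. Others named in lists of calls were added after their values were seen. The members and gene lists were chosen with earlier results of these data known. Markers of other cell types were checked as well: in the 15 knockout and the 12 wild-type libraries the summed levels were at most 5.05 and 8.13 CPM for B cells, 0.841 and 1.40 for T and NK cells, 2.33 and 3.04 for dendritic cells, 5.34 and 10.6 for mast cells and basophils, 0.324 and 0.280 for erythroid cells, 58.2 and 47.7 for endothelial cells and 137 and 205 for osteoclasts.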

Additional observations from a re-analysis of the deposited data

Results flagged for a closer look

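In groups of 4 libraries, a library was marked where its gap to the nearest other library passed Dixon's 95% critical value. Chance marks about 1 in 20 groups, and 15 of 120 tests passed. The knockout vehicle library numbered 2 accounted for 7 of them, all on the high side. Its summed level was 11531.9 CPM for the 76 subunits, where the next library had 9550 CPM, and 4016.53 CPM for complex V, where the next had 3256 CPM. It also stood apart at 950.253 CPM for Atp5a1, 292.241 CPM for Atp5g3, 138.255 CPM for Atp5h, 139.484 CPM for Cox7a2 and 133.38 CPM for Cox7b. The same library had the highest Arg1 level without IL4, at 117 CPM, and the steepest length trend, at 0.21, and their part in these values was not tested.

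The knockout corticosterone library numbered 2 was high at 840.789 CPM for Atp5a1, 86.1887 CPM for Atp5g1, 128.344 CPM for Cox7a2, 49.6238 CPM for Ndufa12 and 89.9023 CPM for Ndufb10. With dexamethasone, the knockout library numbered 2 was high at 198.373 CPM for Atp5c1 and 148.064 CPM for Ndufs1, and the one numbered 4 was low at 179.286 CPM for Cox6a1.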

How the results depend on the processing

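No called value changed its direction under the alternatives tried. The counts below are subunits called in either direction, without the share of all genes called in each fit. Without the filter on low counts 5 were called for IL4 in knockout cells and 4 for knockout against wild type with vehicle, and DESeq2 called 2 for dexamethasone in wild-type cells. A fit of the 2 groups alone gave 24 for IL4 in wild-type cells, 0 for IL4 in knockout cells, 2 for knockout against wild type with vehicle, and 10 in knockout and 47 in wild-type cells for IL4 against dexamethasone. The replicate block gave 31 for IL4, 3 for dexamethasone and 42 for IL4 against dexamethasone in wild-type cells, and 2 for corticosterone and 3 for dexamethasone in knockout cells, where the numbers did not pair the last groups. It moved no other count by over 1.5 times. Taking out the length trend gave 19 for IL4 in knockout cells, 3 for dexamethasone in wild-type cells, and 2 with IL4 and 4 with vehicle for knockout against wild type. The block with the length trend gave 24 for IL4, 4 for corticosterone, 4 for dexamethasone and 28 for IL4 against dexamethasone in knockout cells, and 31, 1, 5 and 38 in wild-type cells. A block within genotype could not be fitted for knockout against wild type. A block by number across genotypes, chosen after seeing the data, gave 12 with vehicle, and 2 with IL4 when the length trend was also taken out. Leaving out the libraries high in Arg1 gave 2 for dexamethasone and 40 for IL4 against dexamethasone in wild-type cells and 1 for knockout against wild type with vehicle, and leaving out wild-type libraries numbered 1 gave 1 for knockout against wild type with corticosterone. The cause of these moves was not tested. Leaving out 1 library at a time gave 4 to 17 for IL4 in knockout and 10 to 21 in wild-type cells, 0 to 1 for dexamethasone in either, and 12 to 20 in knockout and 13 to 34 in wild-type cells for IL4 against dexamethasone. For knockout against wild type it gave 1 to 3 with IL4, 2 to 7 with corticosterone, 5 to 9 with dexamethasone and 3 to 12 with vehicle. Corticosterone and the 3 genotype interactions stayed at 0. With 3 or 4 libraries a group, changes as small as the median of the members were called for few of them.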

Other observations

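Ndufb1-ps, left out because its name carries the pseudogene mark, averaged 44.0 CPM over the 27 libraries, more than the members Ndufb4 or Cox7a1. Cyc1, the cytochrome c1 subunit of complex III, whose name does not match the rule, rose with IL4 in wild-type cells by 0.39 on the log2 scale (edgeR's quasi-likelihood test, adjusted p = 0.0491).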
